A study of Mus musculus with 16 samples.

Results

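The heat shock chaperones described here are 10 genes that encode chaperones and co-chaperones of the heat shock response: Hspa1a, Hspa1b, Hspa8, Hsph1, Dnajb1, Dnaja1, Hspb1, Hsp90aa1, Hspd1 and Bag3. They were taken by name, and their Entrez identifiers were matched to mouse symbols. All 10 were found among the 24467 genes of the files, and all 10 passed the filter on low counts that left 15963 genes for testing. The study measured RNA by bulk sequencing in mouse pancreatic ductal adenocarcinoma (PDAC) cells sorted from tumours that had grown in the pancreas of host mice. Every group came from the same line, KPC 7TCF-eGFP/Porcn-DMA PDAC. KPC cells are a mouse PDAC line, in 7TCF-eGFP green fluorescent protein is under the control of TCF binding sites, and the make-up of Porcn-DMA was not given in the sources used here. The dissociated tumours were sorted by flow cytometry into 4 populations of 4 libraries each, from 4 mice per group. DP cells were positive for both reporters. GFP cells were positive for the green reporter alone and are taken as the WNT-responsive gate. mScarlet cells were positive for the red reporter alone, which no label ties in words to a function, although the design has a WNT-secreting gate left for it. DN cells were negative for both. The strain, sex and age of the hosts, and whether the line is a single clone, were not given in the sources used here.

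Heat shock proteins keep other proteins folded. Unfolded proteins draw chaperones away from heat shock factor 1 (HSF1), which then forms trimers, binds heat shock elements in promoters and raises transcription of inducible HSP70, HSP40, HSP110, HSP90, HSP60 and small heat shock protein genes. Tumour cells are known to depend on this system for the folding of mutant and overproduced proteins, and the inducible genes also respond within minutes to handling of living cells. Hspa1a and Hspa1b are the main stress-inducible HSP70 genes, and Hspa8 encodes the constitutive HSP70 relative HSC70.

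Total counts per library ran from 80647185 to 104273669, and 15476 to 17805 genes had at least 1 count. Levels below are CPM (counts scaled to a common library total) after TMM scaling, which corrects library totals for differences in composition, and 3 counts were worth 0.0284 to 0.0388 CPM. The 10 genes together held 0.257% to 0.355% of the counts of a library. Epithelial markers (10 genes, up to 3 of them at 0 in a library) summed to 29370 to 37610 CPM in DP, 16370 to 32760 CPM in GFP, 29470 to 44890 CPM in mScarlet and 26250 to 29190 CPM in DN libraries, so epithelial RNA was present in every library. In GFP library 1 the epithelial sum of 16370 CPM was below the macrophage sum of 24750 CPM, and in GFP library 4 the epithelial sum of 27050 CPM stood beside an acinar sum of 23660 CPM. RNA of other cell types was also present and was uneven. Macrophage markers (10 genes, none at 0 in any library) summed to 2246 to 6466 CPM in DP, 1054 to 24750 CPM in GFP, 1276 to 2313 CPM in mScarlet and 965.1 to 3583 CPM in DN libraries, with the maximum in GFP library 1. Fibroblast markers (10 genes, up to 3 of them at 0 in a library) summed to 26.7 to 268.9 CPM in DP, 608.1 to 9111 CPM in GFP, 17.8 to 88.5 CPM in mScarlet and 135.3 to 1429 CPM in DN libraries, with the maximum in GFP library 4. Acinar markers (10 genes, none at 0) summed to 17.5 to 128.4 CPM in DP, 264.6 to 23660 CPM in GFP, 36.4 to 1085 CPM in mScarlet and 57.7 to 710.5 CPM in DN libraries, again with the maximum in GFP library 4. Markers of endothelial cells (8 genes), lymphocytes (9) and neutrophils (5) summed to at most 233.6 CPM in DP, 151.8 CPM in GFP, 294.1 CPM in mScarlet and 317.6 CPM in DN libraries, and the 3 erythroid markers in the files to at most 607.2, 4528, 204.2 and 277.6 CPM in those groups. In bulk libraries, fewer cells of a type and less RNA per cell cannot be told apart.

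The inducible HSP70 genes carry the clearest difference between the groups, so their promoters are shown first. Hspa1a (Entrez 193740) lies on the minus strand of chromosome 17 from 34969359 to 34972156 in GRCm38.p6, and Hspa1b (Entrez 15511) lies beside it on the same strand from 34956429 to 34959238. Each has 1 exon. The windows below, from RefSeq on GRCm38.p6, run from 250 bases before to 50 bases after the start of transcription, at chr17:34972107-34972406 for Hspa1a and chr17:34959189-34959488 for Hspa1b, both on the minus strand. Capitals mark a match to the heat shock element in its shortest form, a pair of inverted 3-letter units spelled GAANNTTC or TTCNNGAA. Each spelling is its own reverse complement, so 1 search covers both strands.
Hspa1a: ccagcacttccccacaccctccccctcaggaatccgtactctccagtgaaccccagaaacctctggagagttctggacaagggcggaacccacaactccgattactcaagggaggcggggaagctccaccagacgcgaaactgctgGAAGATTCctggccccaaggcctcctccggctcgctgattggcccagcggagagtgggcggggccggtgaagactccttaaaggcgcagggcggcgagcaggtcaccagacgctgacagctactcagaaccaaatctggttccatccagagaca
Hspa1b: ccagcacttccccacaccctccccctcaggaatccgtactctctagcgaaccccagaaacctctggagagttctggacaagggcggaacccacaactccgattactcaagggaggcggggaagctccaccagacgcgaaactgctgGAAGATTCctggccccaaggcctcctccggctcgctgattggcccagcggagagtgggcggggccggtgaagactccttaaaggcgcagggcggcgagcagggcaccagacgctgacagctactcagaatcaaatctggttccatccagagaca
The windows were identical at 296 of 300 bases (98.7%). Each held 1 match, GAAGATTC, that began 104 bases before the start.

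Hspa1a had its highest level in GFP cells, and GFP vs mScarlet gave the only call that edgeR's test on all 16 libraries, without a replicate block, made among the 10 genes in any comparison of 2 groups. Hspa1a was at 62.6, 27.1, 57.1 and 47.7 CPM in DP libraries 1 to 4. GFP libraries 1 to 4 held 195, 57.9, 105 and 319 CPM. Its level was 20.7, 21.5, 25.5 and 30.4 CPM in mScarlet libraries 1 to 4 and 29.2, 22.7, 38.6 and 26.2 CPM in DN libraries 1 to 4. Every GFP library was above every mScarlet and every DN library, and DP overlapped all 3 of the other groups. GFP libraries 4 and 1 were far above GFP libraries 3 and 2. Of all genes, 8.95% did not overlap between GFP and mScarlet and 4.19% between GFP and DN. The means were 48.6 ± 15.6 CPM in DP, 169 ± 115 CPM in GFP, 24.5 ± 4.47 CPM in mScarlet and 29.2 ± 6.83 CPM in DN (SD, n = 4 each). Against mScarlet, GFP was higher by a log2 fold change of 2.79 (SE 0.42), a 6.90-fold difference, and edgeR's quasi-likelihood test with Benjamini-Hochberg adjustment over all tested genes gave an adjusted p of 0.0146. Against DN, the log2 fold change of GFP was 2.54 (SE 0.41) with an edgeR adjusted p of 0.138, although the unadjusted p of 1.63e-05 was the smallest of all 15963 genes in that comparison. With the library number as a replicate block, Hspa1a passed in GFP vs DN (2.37 on the log2 scale, SE 0.34, edgeR adjusted p = 0.0262). It passed as well without GFP library 2, its lowest GFP library (edgeR adjusted p = 0.00998). Of 26 alternative fits of GFP vs DN only 3 called it, and limma voom gave an adjusted p of 0.161. In DP vs GFP the log2 fold change was -1.80 (SE 0.40, edgeR adjusted p = 0.054). It became -1.69 (SE 0.33, edgeR adjusted p = 0.0144) with the replicate block. Hspa1a passed there also without GFP library 2 or 3, its lowest GFP libraries (edgeR adjusted p = 0.0208 and 0.0361). Of 26 alternative fits of DP vs GFP, 6 called it. The DP group missed the threshold against DN, with a log2 fold change of 0.74 (SE 0.39, edgeR adjusted p = 0.392). Set against mScarlet, DP had a log2 fold change of 0.99 (SE 0.40, edgeR adjusted p = 1).

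The Hspa1a call in GFP vs mScarlet was lost without mScarlet library 1 (edgeR adjusted p = 0.0633). It was also lost without GFP libraries 1 and 4 together (1.73 on the log2 scale, SE 0.30, edgeR adjusted p = 0.0739). A fit of the GFP and mScarlet libraries alone lost it too (edgeR adjusted p = 0.108). Over all genes these fits called 6, 2 and 2, in that order, against 245 in the main fit. GFP libraries 1 and 4, the Hspa1a maxima, also held the macrophage, fibroblast and acinar maxima given above; without both, GFP libraries 2 and 3 still lay above every mScarlet library and every DN library. Other cell types were not removed with them, since GFP libraries 2 and 3 had fibroblast sums of 1727 and 608.1 CPM and macrophage sums of 3414 and 3513 CPM, against at most 88.5 and 2313 CPM in mScarlet libraries. Leaving out both also moved the log2 fold change to 1.46 in GFP vs DN (SE 0.30, edgeR adjusted p = 0.45) and to -0.74 in DP vs GFP (SE 0.31, edgeR adjusted p = 0.557). Fibroblast markers moved with the same comparison, with 4 of 10 called higher in GFP than in mScarlet, against 1.53% of all genes called in either direction. All 10 macrophage and all 10 acinar markers had a positive log2 fold change, against 51.1% of all genes. Of the macrophage markers edgeR called 0 in that comparison, DESeq2 8 and limma voom 0, and 9 had an unadjusted p under 0.05. Of the acinar markers edgeR called 0, DESeq2 9 and limma voom 0, and 10 had an unadjusted p under 0.05. Of all genes, 19.2% had such a p in GFP vs mScarlet. The part of those cells in the Hspa1a difference was not tested beyond leaving the 2 libraries out.

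**Figure D1:**
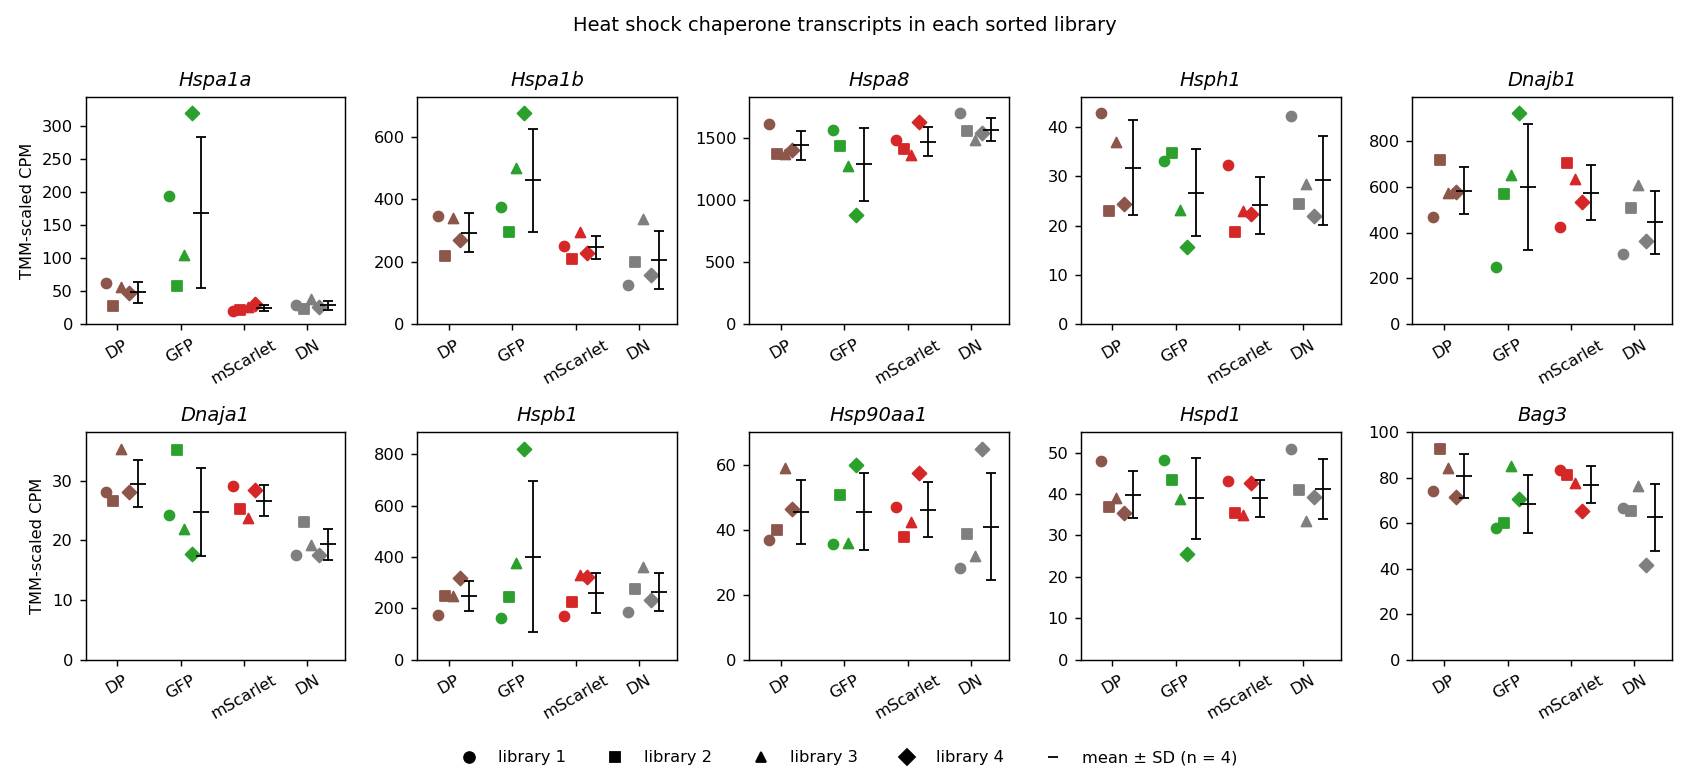
TMM-scaled CPM of each of the 10 heat shock chaperone genes (1 panel each, linear axis from 0) in the DP, GFP, mScarlet and DN libraries, with the marker shape giving the library number and the bar the mean ± SD of 4 libraries. Hspa1a spans 57.9 to 319 CPM in GFP and 20.7 to 30.4 CPM in mScarlet, whereas the panels of Hsp90aa1, Hspd1 and Hsph1 overlap across all groups.

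Hspa1b, the neighbouring copy, was at 347, 217, 342 and 270 CPM in DP libraries 1 to 4 and at 375, 297, 499 and 675 CPM in GFP libraries 1 to 4. It was at 251, 209, 295 and 229 CPM in mScarlet libraries and at 126, 200, 338 and 158 CPM in DN libraries 1 to 4. Every GFP library was above every mScarlet library, but DN library 3 was above GFP library 2, and GFP library 4 was again the maximum. Against mScarlet the log2 fold change of GFP was 0.91 (SE 0.29, edgeR adjusted p = 0.103), and against DN it was 1.17 (SE 0.29, edgeR adjusted p = 0.357). In DP vs GFP it was -0.65 (SE 0.29, edgeR adjusted p = 0.281). DESeq2 called Hspa1b in both GFP vs DN (adjusted p = 0.00934) and GFP vs mScarlet (adjusted p = 0.0188).

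The copies share sequence, so the authors' counting may have moved reads between them. Of the 100-base windows of the Hspa1a transcript, 48.6% occurred exactly in transcripts of other genes, and of the Hspa1b transcript 49.9%, nearly all in the other copy. Counted as 1 gene, a step added after the data were seen, they were at 342.4 ± 77.2 CPM in DP, 630.6 ± 266.2 CPM in GFP, 270.7 ± 37.7 CPM in mScarlet and 234.5 ± 98.6 CPM in DN (SD, n = 4 each). The sum had a log2 fold change of 1.22 in GFP vs mScarlet (SE 0.30, edgeR adjusted p = 0.051) and 1.43 in GFP vs DN (SE 0.30, edgeR adjusted p = 0.271), so neither passed. The share of the pooled counts given to Hspa1a also differed by group. It averaged 13.9 ± 1.95% in DP, 25.0 ± 9.45% in GFP, 9.15 ± 1.88% in mScarlet and 13.4 ± 4.10% in DN (SD, n = 4 each). The 4 GFP libraries stood at 34.2, 16.3, 17.4 and 32.1%, all above the DP and the mScarlet libraries. A two-sided exact permutation test over 70 assignments did not use the library number. The exact permutation p was 0.0286, the smallest possible, in both GFP vs mScarlet and DP vs GFP (adjusted over 6 comparisons, p = 0.0857). In DP vs GFP, where the numbers were taken as pairs in the replicate block, this test ignores the pairing. An exact test within 4 pairs could not reach a p that small, and none was run. GFP vs DN had an exact permutation p of 0.0857 (adjusted p = 0.129) when the library number was not used, and GFP was above DN in 4 of 4 same-numbered pairs. Whether this share follows transcription of the 2 genes or the assignment of shared reads was not tested. Gm20481 overlaps Hspa1a on the opposite strand, and the use of strand in counting was not given in the sources used here.

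**Figure D2:**
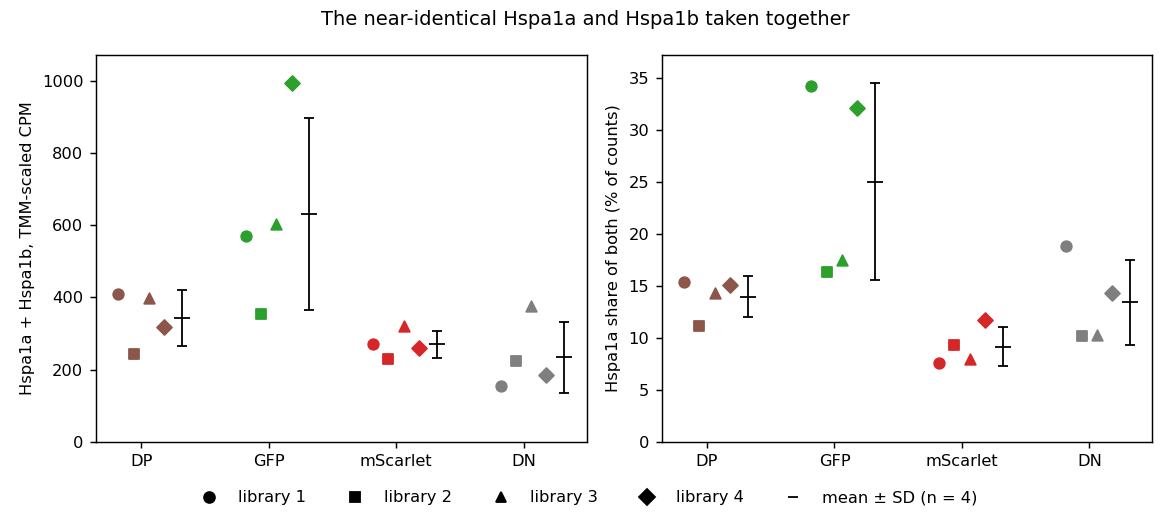
Left, Hspa1a and Hspa1b summed (TMM-scaled CPM), and right, the share of their pooled counts given to Hspa1a (%), in DP, GFP, mScarlet and DN libraries, with the library number as marker shape and mean ± SD of 4 libraries. The share averages 25.0% in GFP and 9.15% in mScarlet, with GFP libraries 1 and 4 at 34.2% and 32.1%.

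Hspa8 (Entrez 15481, chromosome 9 from 40801276 to 40805202, plus strand), the constitutive HSC70, was called in no comparison. It was at 1616, 1373, 1377 and 1406 CPM in DP libraries 1 to 4 and at 1566, 1437, 1277 and 884 CPM in GFP libraries 1 to 4. It was at 1485, 1412, 1368 and 1629 CPM in mScarlet libraries and at 1700, 1555, 1486 and 1542 CPM in DN libraries. GFP library 4, which had the most Hspa1a and Hspa1b, had the least Hspa8, and all 4 groups overlapped. In GFP vs DN the log2 fold change was -0.28 (SE 0.15, edgeR adjusted p = 0.545).

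Hsph1 (Entrez 15505, chromosome 5 from 149616843 to 149636498, minus strand) encodes HSP110, a nucleotide exchange factor that lets HSP70 release its client. It was at 42.7, 22.9, 36.8 and 24.4 CPM in DP libraries and at 33.2, 34.6, 23.2 and 15.7 CPM in GFP libraries 1 to 4. It was at 32.3, 18.7, 22.9 and 22.4 CPM in mScarlet libraries and at 42.1, 24.3, 28.4 and 21.8 CPM in DN libraries. Library 1 was the highest in DP, mScarlet and DN, and no comparison of groups separated them. The edgeR adjusted p was 0.736 or more in every pair of groups.

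Of the J-proteins, which deliver clients to HSP70 and stimulate its ATPase, Dnajb1 (Entrez 81489, chromosome 8 from 83608175 to 83612653, plus strand) encodes the inducible HSP40. Dnajb1 was at 468, 715, 572 and 578 CPM in DP libraries and at 250, 569, 654 and 920 CPM in GFP libraries 1 to 4. It was at 427, 704, 633 and 535 CPM in mScarlet libraries and at 306, 506, 609 and 363 CPM in DN libraries. The lowest library of every group was library 1, and GFP held both the lowest and the highest value of all 16. The log2 fold change against DN was 0.39 in DP, 0.42 in GFP and 0.37 in mScarlet (SE 0.31 each), with edgeR adjusted p of 0.601, 0.688 and 0.658. These 3 comparisons share the DN libraries.

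Dnaja1 (Entrez 15502, chromosome 4 from 40722468 to 40734965, plus strand), a J-protein of the cytosol, was the one gene whose DN libraries lay apart from 2 other groups. It was at 28.1, 26.5, 35.3 and 28.0 CPM in DP libraries and at 24.2, 35.1, 21.9 and 17.7 CPM in GFP libraries 1 to 4. It was at 29.1, 25.3, 23.8 and 28.4 CPM in mScarlet libraries and at 17.5, 23.0, 19.2 and 17.6 CPM in DN libraries. Every DP and every mScarlet library was above every DN library, while GFP overlapped all of them. Of all genes, 13% did not overlap between DP and DN and 11.1% between mScarlet and DN. The log2 fold change was 0.61 in DP vs DN (SE 0.20, edgeR adjusted p = 0.126) and 0.46 in mScarlet vs DN (SE 0.20, edgeR adjusted p = 0.288), and both share the DN libraries. DESeq2 called the first (adjusted p = 0.0471). Smu1 overlaps Dnaja1 on the opposite strand, so without stated strand their reads cannot be told apart.

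Bag3 (Entrez 29810, chromosome 7 from 128523583 to 128546981, plus strand) encodes a co-chaperone that binds the HSP70 nucleotide-binding domain and links it to small heat shock proteins and selective autophagy. It was at 74.0, 92.6, 84.1 and 71.7 CPM in DP libraries and at 57.7, 60.0, 85.3 and 70.7 CPM in GFP libraries 1 to 4. It was at 83.5, 81.1, 77.8 and 65.6 CPM in mScarlet libraries and at 66.5, 65.5, 76.4 and 41.7 CPM in DN libraries. DN library 4 was the lowest of all 16 and DP library 2 the highest, but every pair of groups overlapped. The largest log2 fold change was 0.37 in DP vs DN (SE 0.18, edgeR adjusted p = 0.334).

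Hspb1 (Entrez 15507, chromosome 5 from 135887919 to 135889563, plus strand) encodes the small heat shock protein that holds unfolded proteins without ATP. It was at 175, 248, 249 and 318 CPM in DP libraries and at 163, 246, 375 and 821 CPM in GFP libraries 1 to 4. It was at 171, 223, 329 and 321 CPM in mScarlet libraries and at 187, 274, 362 and 232 CPM in DN libraries. GFP held both the lowest and the highest of all 16 libraries, and GFP library 4 was more than 2 times any other. The log2 fold change of GFP was 0.60 against DN (SE 0.39, edgeR adjusted p = 0.644) and 0.62 against mScarlet (SE 0.39, edgeR adjusted p = 0.432). Without GFP library 4 these became -0.04 and 0.00, so the mean of the GFP group rests on that library.

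Hsp90aa1 (Entrez 15519, chromosome 12 from 110691036 to 110696395, minus strand) encodes the inducible HSP90, which matures kinases and steroid receptors. It was at 37.0, 39.9, 59.2 and 46.4 CPM in DP libraries and at 35.6, 50.9, 36.0 and 60.1 CPM in GFP libraries 1 to 4. It was at 47.2, 37.9, 42.6 and 57.5 CPM in mScarlet libraries and at 28.2, 38.9, 32.1 and 65.0 CPM in DN libraries. DN library 1 was the lowest and DN library 4 the highest of all 16, and the means were 45.6 ± 9.89 CPM in DP, 45.7 ± 12.0 CPM in GFP, 46.3 ± 8.36 CPM in mScarlet and 41.1 ± 16.6 CPM in DN (SD, n = 4 each). All edgeR adjusted p-values between pairs of groups were 0.846 or more.

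Hspd1 (Entrez 15510, chromosome 1 from 55077833 to 55088243, minus strand) encodes HSP60, the mitochondrial chaperonin, and overlaps its co-chaperonin gene Hspe1 on the opposite strand. Hspd1 was at 47.9, 36.8, 39.1 and 35.5 CPM in DP libraries and at 48.2, 43.3, 38.8 and 25.5 CPM in GFP libraries 1 to 4. It was at 43.0, 35.3, 34.8 and 42.6 CPM in mScarlet libraries and at 50.9, 41.0, 33.5 and 39.3 CPM in DN libraries. Library 1 was the highest in all 4 groups, and the group means, from 38.9 ± 4.47 CPM in mScarlet to 41.2 ± 7.23 CPM in DN (SD, n = 4 each), lay closer to each other than the libraries of any group. The edgeR adjusted p was 0.92 or more in every pair of groups.

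Hspb1 and Hspd1 stood at opposite ends of the pattern by library given below, and their promoter windows, again from RefSeq on GRCm38.p6, show how far heat shock element matches differ among the 10 genes. The Hspb1 window is chr5:135887669-135887968 on the plus strand, and the Hspd1 window, of the second annotated start site, is chr1:55087883-55088182 on the minus strand. Capitals mark the same motif, and in Hspd1 a run in which neighbouring matches share a 3-letter unit.
Hspb1: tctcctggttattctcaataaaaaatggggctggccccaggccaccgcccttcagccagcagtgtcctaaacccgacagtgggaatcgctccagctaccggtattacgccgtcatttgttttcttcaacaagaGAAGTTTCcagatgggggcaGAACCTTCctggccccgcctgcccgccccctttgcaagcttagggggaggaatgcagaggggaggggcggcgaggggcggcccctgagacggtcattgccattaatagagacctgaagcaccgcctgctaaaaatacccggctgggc
Hspd1: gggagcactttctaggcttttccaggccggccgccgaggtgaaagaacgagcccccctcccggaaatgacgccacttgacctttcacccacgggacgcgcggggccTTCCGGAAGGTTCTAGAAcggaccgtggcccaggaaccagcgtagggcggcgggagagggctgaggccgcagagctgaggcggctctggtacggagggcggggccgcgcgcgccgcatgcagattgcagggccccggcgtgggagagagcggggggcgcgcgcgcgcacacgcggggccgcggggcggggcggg
Hspb1 held 2 separate matches, GAAGTTTC at 117 and GAACCTTC at 97 bases before the start. Hspd1 held a run of 4 units, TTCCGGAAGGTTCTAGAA, that began 144 bases before this second start, and its window at the first start, the 5′ end of the gene, held 0 matches. Hsph1 held a run of 3 units, TTCTGGAAAGTTC, that began 36 bases after 1 of its annotated starts, and a separate match 33 bases before it. Dnaja1 held GAAAATTC at 124 bases before its start, and Bag3 held GAAGTTTC at 42 bases after it. RefSeq windows were matched for 8 of the 10 genes, all but Hspa8 and Hsp90aa1, 7 of which held at least 1 match and 2 of which held a run of 3 or more units. Among all genes with a window, 17.0% held a match and 0.662% such a run.

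Read across comparisons, the 10 genes gave few calls beyond Hspa1a. In GFP vs DN edgeR called 0 of 10, against 0% of the 15963 genes, while 2 of the 10 and 1551 genes had an unadjusted p under 0.05. DESeq2 called 246 genes in that comparison, Hspa1a and Hspa1b among them, and limma voom called 2 genes and none of the 10. One of the 10, Hspa1a, did not overlap between the groups, against 4.19% of all genes. The median log2 fold change was 0.25 over the 10 genes and 0.02 over all genes.

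In mScarlet vs DN edgeR called 0 of 10, against 1.18% of all genes, and DESeq2 and limma voom called 0. An unadjusted edgeR p under 0.05 was found for 1 of 10, against 14.2% of all genes. Dnaja1 alone did not overlap, against 11.1% of all genes. In DP vs DN edgeR called 0 of 10, against 2.32%, DESeq2 called 1 (Dnaja1) and limma voom 0. There 1 of 10 had an unadjusted edgeR p under 0.05, against 15.8% of all genes. Dnaja1 alone did not overlap there, against 13% of all genes. In GFP vs mScarlet edgeR called 1 of 10, against 1.53%, and 2 of 10 (Hspa1a and Hspa1b) did not overlap, against 8.95%. The medians over the 10 genes were 0.08 in mScarlet vs DN, 0.26 in DP vs DN and 0.03 in GFP vs mScarlet on the log2 scale.

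In DP vs GFP edgeR called 0 of 10, against 0.564% of all genes, DESeq2 called 1 (Hspa1a) and limma voom 0. Of the 10, 2 had an unadjusted edgeR p under 0.05, against 15.9% of all genes. None of the 10 separated the groups, against 8.1% of all genes. In DP vs mScarlet edgeR called 0 of 10, against 0%, with 1 of 10 and 460 genes at an unadjusted p under 0.05. DESeq2 called 50 genes and limma voom 0 in that comparison, none of them among the 10. None of the 10 separated DP from mScarlet, against 2.61% of all genes. With the library number as a replicate block, the calls over all genes numbered 11 in GFP vs DN, 865 in mScarlet vs DN (188 without the block), 1017 in DP vs DN (371 without it) and 813 in DP vs GFP (90 without it), with Hspa1a the only one of the 10 in the first and the last and none of the 10 in the other 2.

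**Figure D3:**
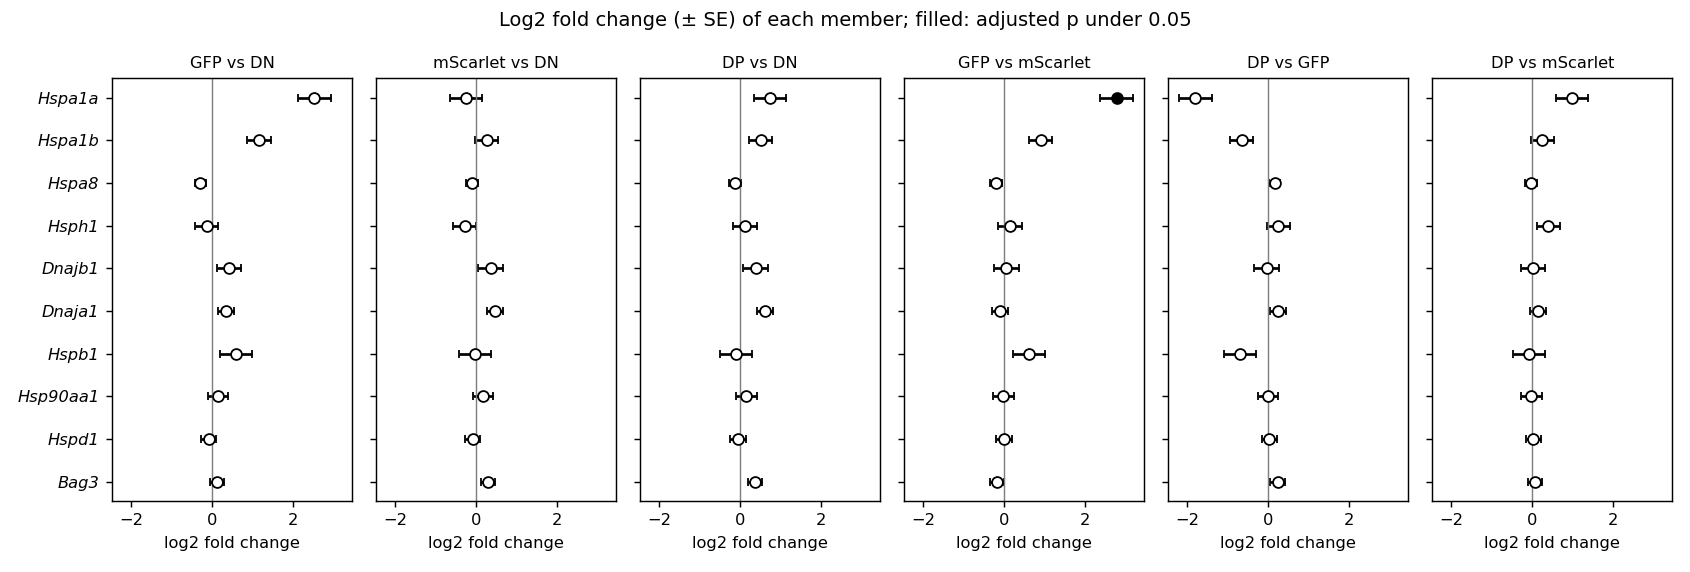
Log2 fold change ± SE (edgeR, 16 libraries) of each of the 10 genes in the 6 comparisons of 2 groups, with filled points for an adjusted p under 0.05. Hspa1a in GFP vs mScarlet (2.79) is the only filled point, and Hspa1a in GFP vs DN (2.54) is open.

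Averaged over gates, the 2 reporters gave opposite signs for Hspa1a. The GFP group, which had the highest Hspa1a mean, enters the 2 contrasts with opposite signs. The mScarlet-positive contrast averages DP vs GFP, with a log2 fold change of -1.80, and mScarlet vs DN. In mScarlet vs DN the log2 fold change of Hspa1a was -0.25 (SE 0.39, edgeR adjusted p = 0.858). In mScarlet-positive cells (DP and mScarlet) against mScarlet-negative cells (GFP and DN), Hspa1a was lower, with a log2 fold change of -1.03 (SE 0.28, edgeR adjusted p = 0.0329), and it was the 1 of 10 called, against 8.73% of all genes. Leaving out any 1 of 11 libraries (DP 2, 3 or 4, GFP 1 or 4, mScarlet 1, 2 or 3, DN 1, 3 or 4) moved the edgeR adjusted p over the threshold, to between 0.0518 and 0.0704, and limma voom gave 0.0983. Without GFP libraries 1 and 4 together the log2 fold change was -0.50 (SE 0.20, edgeR adjusted p = 0.185), and the summed pair had -0.34 (SE 0.21, edgeR adjusted p = 0.351). In GFP-positive cells (DP and GFP) against GFP-negative cells (mScarlet and DN), the log2 fold change was 1.76 (SE 0.28, edgeR adjusted p = 0.0779). There edgeR called 0 of 10, against 0% of all genes, with 2 of 10 and 1551 genes at an unadjusted p under 0.05, 2 of 10 called by DESeq2 (Hspa1a and Hspa1b) and 0 of 10 by limma voom. Hspa1a passed there without GFP library 2 (edgeR adjusted p = 0.00955) and without GFP library 4 (0.03). The interaction, the GFP difference within mScarlet-positive gates minus that within mScarlet-negative gates, was -1.55 for Hspa1a (SE 0.56, unadjusted p = 0.0136, edgeR adjusted p = 1). In it edgeR called 0 of 10, against 0% of all genes, and DESeq2 and limma voom called none of the 10. An unadjusted edgeR p under 0.05 was found for 2 of 10 (Hspa1a and Hspa1b), against 3.29% of all genes.

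The levels of the genes can be compared per length only. By median CPM per kilobase of exon over the 16 libraries, Hspa8 was the highest at 572, then came Hspb1 at 241, Dnajb1 at 178 and Hspa1b at 101. Bag3 followed at 28.4, Hspd1 at 14.8, Hspa1a at 11.6, Hsp90aa1 at 10.9, Hsph1 at 5.71 and Dnaja1 at 4.20. The only neighbours in this order whose ranges over libraries did not touch were Hspa1b (44.9 to 241 CPM per kilobase) and Bag3 (16.3 to 36.2 CPM per kilobase). Hspa1a had the widest spread of the 10, with its highest library 15.4 times its lowest, against 1.92 times for Hspa8 and 1.99 times for Hspd1. Shared sequence limits these levels too, since 62.8% of the 100-base windows of the Hspa8 transcript, 47.5% of Hsp90aa1, 42.7% of Hspb1, 26.9% of Hspd1 and 14.8% of Dnaja1 also occurred in transcripts of other genes, against 0% for Hsph1, Dnajb1 and Bag3.

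The 10 genes did not vary as 1 unit across libraries. Of the 45 pairs, 23 had a Pearson r above 0 on the log2(CPM + 1) scale over the 16 libraries, 7 had r above 0.5 and 8 had r below -0.5, with a median of 0.08. Hspa8 and Hspd1 varied together (r = 0.844, Spearman rho = 0.744), as did Hsph1 and Hspd1 (r = 0.787, rho = 0.665). Dnajb1 and Hspb1 also varied together (r = 0.737, rho = 0.694). The first set ran against the second, with r of -0.855 (rho = -0.738) for Hspb1 and Hspd1 and -0.807 (rho = -0.853) for Dnajb1 and Hspd1. With the group means removed these became 0.926 for Hspa8 and Hspd1, 0.816 for Hsph1 and Hspd1, 0.833 for Dnajb1 and Hspb1, -0.878 for Hspb1 and Hspd1 and -0.833 for Dnajb1 and Hspd1. Without GFP library 4 the r of those 5 pairs was 0.696, 0.709, 0.674, -0.714 and -0.764. Hspa1a followed Hspa1b (r = 0.814, rho = 0.809) and had r of 0.08 with Dnajb1. These values describe 16 libraries that share a cell line, gates and a method of amplification, and they carry no test.

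**Figure D4:**
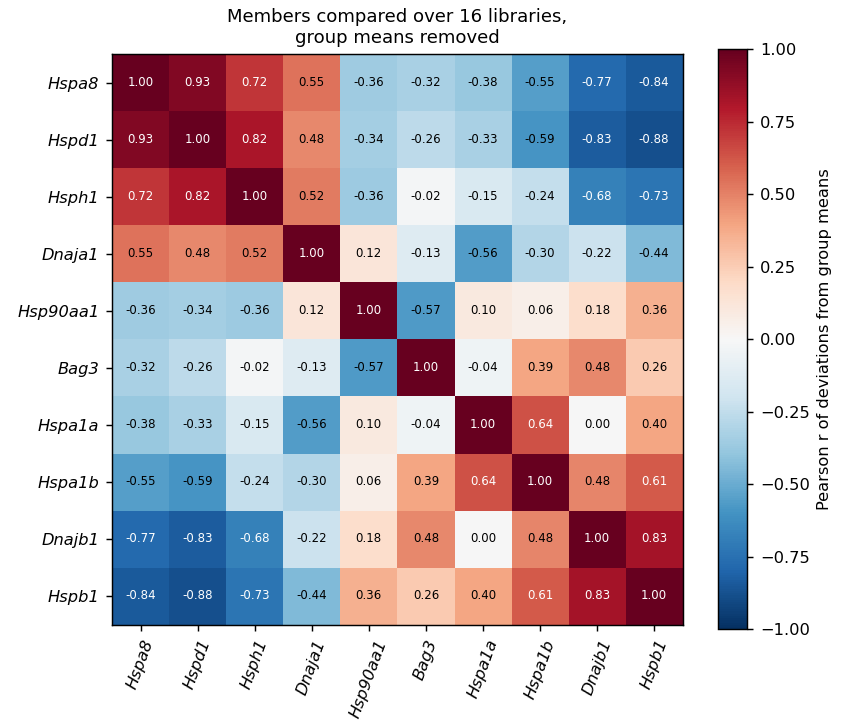
Pearson r of each pair of the 10 genes over 16 libraries after the group mean of log2(CPM + 1) is removed, with red for positive and blue for negative values. Hspa8, Hspd1 and Hsph1 form a red corner (0.72 to 0.93) and stand in blue against Dnajb1 and Hspb1 (-0.68 to -0.88).

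Some of these genes also ranked alike in each group by library number, a label from 1 to 4 that each group carries. Its meaning, such as a mouse or a day, was not given in the sources used here. Dnajb1 and Hspb1 were lowest in library 1 in 4 of 4 groups, and Hspd1 was highest in library 1 in 4 of 4. Hspa8 and Hsph1 were highest in library 1 in 3 of 4 groups. How many of all genes ranked this alike by number was not counted. Over all tested genes, each of the 16 libraries had its best match in another group in one of its own number. From the group mean, library 1 deviated on the log2(CPM + 1) scale by -0.63 for Hspb1, -0.58 for Dnajb1, 0.27 for Hspd1 and 0.46 for Hsph1. A test of the 3 number terms beside the group, added after these values were seen, called 0 of the 10 genes, against 8.49% of all genes. The edgeR adjusted p was 0.0501 for Hspb1, 0.0775 for Hsph1 and 0.0945 for Dnajb1, and 4 of 10 had an unadjusted p under 0.05. The share of all genes with such a p was not counted. DESeq2 and limma voom were not run for this test.

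**Figure D5:**
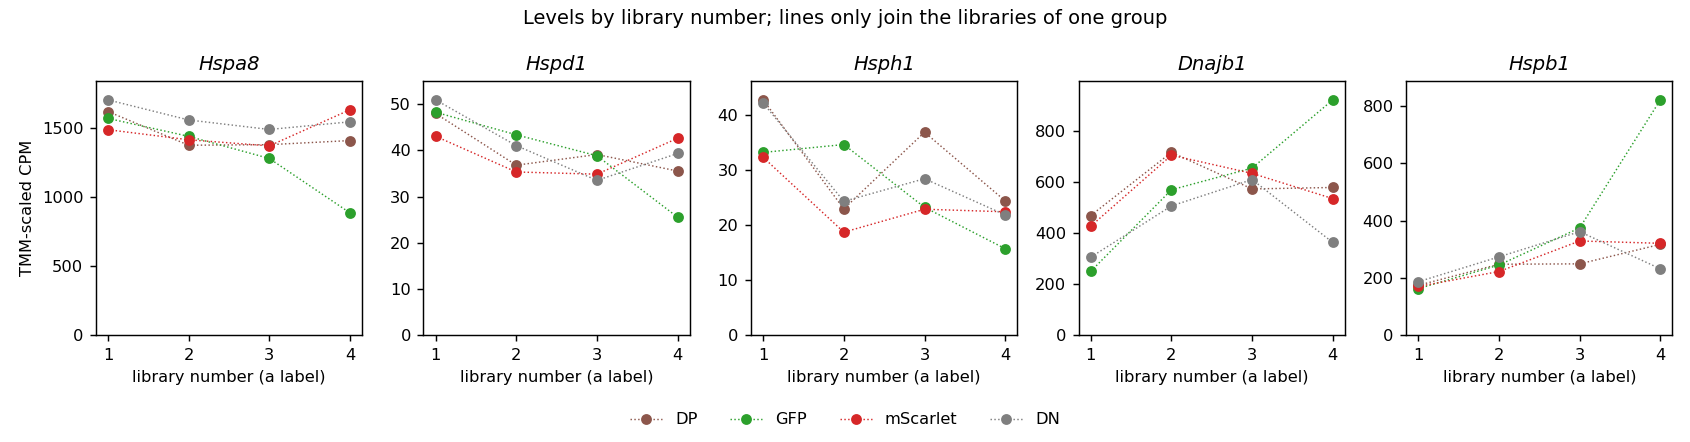
TMM-scaled CPM of Hspa8, Hspd1, Hsph1, Dnajb1 and Hspb1 by library number, a label and not a time, with 1 colour for each of DP, GFP, mScarlet and DN and dotted lines that only join libraries of 1 group. Library 1 holds the lowest Dnajb1 and Hspb1 and the highest Hspd1 of each group.

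The rest of the chaperone system was read from lists of related genes. Of 4 heat shock factor genes (Hsf1, Hsf2, Hsf4 and the HSF1-binding Hsbp1), 0 were called by edgeR, DESeq2 or limma voom in any comparison and 0 had an unadjusted p under 0.05. Hsf1 was at 67.9 ± 4.34 CPM in DP, 73.8 ± 9.53 CPM in GFP, 70.7 ± 7.22 CPM in mScarlet and 76.2 ± 6.40 CPM in DN (SD, n = 4 each). Its transcript level says nothing of the activity of the protein, which is set after translation.

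Among 29 other cytosolic chaperones and co-chaperones, Bag2 had its lowest means in the mScarlet-positive gates, and it was below DN in the GFP gate too. Bag2, which inhibits the ubiquitin ligase of the HSP70 system, was at 27.4 ± 4.91 CPM in DP, 38.0 ± 2.86 CPM in GFP, 27.0 ± 10.4 CPM in mScarlet and 60.9 ± 9.63 CPM in DN (SD, n = 4 each). The GFP libraries (34.3 to 41.1 CPM) lay below the DN libraries (53.6 to 74.0 CPM) and overlapped the mScarlet libraries (15.2 to 38.7 CPM). Of all genes, 4.19% did not overlap between GFP and DN, and edgeR called 0 of the 29 in that comparison. Bag2 was lower in DP than DN (-1.15 on the log2 scale, SE 0.23, edgeR adjusted p = 0.017), in mScarlet than DN (-1.17, SE 0.23, edgeR adjusted p = 0.0258) and in mScarlet-positive than mScarlet-negative cells (-0.82, SE 0.16, edgeR adjusted p = 0.00708). The DP call missed the threshold without DP library 1, 2 or 3 or DN library 1 or 4 (edgeR adjusted p from 0.0556 to 0.0742). The mScarlet call missed it without mScarlet library 1, 2 or 3 or DN library 1 or 4 (0.0527 to 0.101), and the call of the averaged contrast held in all 16 fits that left out 1 library. In the mScarlet-positive contrast Hspbp1, an HSP70 exchange factor, was lower (-0.34 on the log2 scale, SE 0.09, edgeR adjusted p = 0.0315) and Bag1, another exchange factor, was higher (0.44, SE 0.12, edgeR adjusted p = 0.0324). Those 3 were all the edgeR calls of the 29, in a contrast that called 8.73% of all genes. The Hspbp1 call missed the threshold without DP library 1 or 3, GFP library 1, mScarlet library 1 or 2 or DN library 1 (edgeR adjusted p from 0.0502 to 0.0706). The Bag1 call missed it without DP library 1, 2 or 4, GFP library 1 or 4, mScarlet library 2 or 4 or DN library 1 or 4 (0.0555 to 0.0792). Neither held without GFP libraries 1 and 4 together (0.122 and 0.151).

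In the TRiC chaperonin, which folds actin and tubulin, the log2 fold change was below 0 for 7 of 8 subunits in GFP vs DN, 8 of 8 in mScarlet vs DN and 7 of 8 in DP vs DN, 3 comparisons that share the DN libraries. Of all genes, 52.3%, 49.7% and 51.8% were above 0 in those comparisons. Cct7 was the only subunit edgeR called there, at 507.1 ± 53.6 CPM in DP and 743.4 ± 48.6 CPM in DN (SD, n = 4 each; log2 fold change -0.55, SE 0.11, edgeR adjusted p = 0.016). That call was lost without DP library 1 (edgeR adjusted p = 0.0737) or DN library 1 (0.0613). Cct7 was also lower in mScarlet-positive cells (-0.30 on the log2 scale, SE 0.08, edgeR adjusted p = 0.0247), a call lost without DP library 1 (0.0563). Of the 8 subunits, DESeq2 called 3 and limma voom 3 in DP vs DN. In mScarlet vs DN DESeq2 called 2, limma voom 5 and edgeR 0. There 6 of the 8 had an unadjusted p under 0.05, against 14.2% of all genes. Among 10 mitochondrial chaperones and proteases, Lonp1, the matrix protease, was at 162.2 ± 6.66 CPM in DP, 206.2 ± 12.4 CPM in GFP, 158.1 ± 19.2 CPM in mScarlet and 264.5 ± 47.3 CPM in DN (SD, n = 4 each). Lonp1 was lower in DP than DN (-0.71 on the log2 scale, SE 0.13, edgeR adjusted p = 0.00972) and in mScarlet than DN (-0.74, SE 0.13, edgeR adjusted p = 0.0136), the second of which was lost without DN library 1 or mScarlet library 1 or 3 (0.0528 to 0.061). Hspe1, the partner of Hspd1, was at 43.7 ± 12.8 CPM in DP, 47.2 ± 12.0 CPM in GFP, 45.1 ± 15.3 CPM in mScarlet and 56.4 ± 11.5 CPM in DN.

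Of 17 endoplasmic reticulum chaperones, edgeR called 1, the collagen chaperone Serpinh1, which was lower in mScarlet-positive cells (-1.14 on the log2 scale, SE 0.28, edgeR adjusted p = 0.0215). That contrast called 8.73% of all genes. Serpinh1 was at 235.3 ± 28.5 CPM in DP, 664.6 ± 619.4 CPM in GFP, 238.9 ± 27.3 CPM in mScarlet and 409.4 ± 66.8 CPM in DN (SD, n = 4 each), and the fibroblast markers above had their maximum in the same GFP group. The GFP libraries ran from 323 to 1593 CPM and the DN libraries from 360 to 506 CPM. Without GFP library 4 the log2 fold change was -0.69 (edgeR adjusted p = 0.00121). Of 17 immediate-early genes, which respond to growth signals and to tissue handling, all 17 had a positive log2 fold change in GFP vs DN, against 52.3% of all genes. Their median was 0.38, against 0.02 over all genes. In DP vs DN 16 of 17 were positive, against 51.8% of all genes, and in mScarlet vs DN 14 of 17, against 49.7%. These comparisons share the DN libraries. However, edgeR, DESeq2 and limma voom called 0 of the 17 in GFP vs DN. There 5 had an unadjusted p under 0.05, against 9.72% of all genes. Klf4 was the only immediate-early gene that edgeR called (DESeq2 and limma voom each called 2 in DP vs DN), at 55.8 ± 4.61 CPM in DP, 41.4 ± 10.0 CPM in GFP, 51.4 ± 4.55 CPM in mScarlet and 27.3 ± 6.37 CPM in DN (SD, n = 4 each). It was higher in DP than DN (1.03 on the log2 scale, SE 0.20, edgeR adjusted p = 0.0127) and in mScarlet than DN (0.91, SE 0.20, edgeR adjusted p = 0.0378). The second call missed the threshold without DP library 1, 2 or 3, mScarlet library 1, 2 or 3 or DN library 1, 2 or 4 (edgeR adjusted p from 0.0528 to 0.13).

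The genes whose pattern was most like that of Hspa1a over the 16 libraries were the interferon-inducible Ifi27l2a (r = 0.937, rho = 0.879), the chemokine gene Ccl7 (r = 0.922, rho = 0.929) and Gas6, a ligand of TAM receptors (r = 0.920, rho = 0.800), out of 8092 candidates with a mean of at least 10 CPM. Ccl7 was at 26.3 ± 17.2 CPM in DP, 123.9 ± 112.7 CPM in GFP, 3.99 ± 4.07 CPM in mScarlet and 9.06 ± 6.95 CPM in DN (SD, n = 4 each). Without GFP libraries 1 and 4 the r of the 3 genes was 0.783, 0.826 and 0.781. Among the genes most like the mean z score of all 10 genes were Foxn3 (r = 0.741), Mbnl1 (0.739), Rab3gap1 (0.732), Niban1 (0.724), Akr1b10 (0.720), Map3k4 (0.719) and Dipk2a (0.714). That mean, of which each of the 10 genes is a part, followed Dnaja1 (r = 0.704) and Hspa1b (0.666) most closely. It followed Hspa8 (-0.275) and Hspd1 (-0.029) least. These values are descriptions over the same 16 libraries and carry no test. The genes named as most alike were picked as the highest of 8092 candidates, and the r that such a choice reaches without any relation was not computed.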

How the data were processed

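RNA was measured in 16 libraries, 4 each of the DP, GFP, mScarlet and DN gates. Per the labels' protocols, sorted cells went into lysis buffer, RNA was purified on micro-scale columns, and low-input full-length cDNA was amplified by PCR, fragmented and indexed. The authors' deposited values are raw read counts, whole numbers listed by Entrez identifier. The submitters' processing notes list GRCm38 (mm10) as the build, and STAR and DESeq2 1.24.0 as tools, with no roles. The counter, the annotation and the use of strand were not given in the sources used here. Amplified reads carry no molecular identifiers, so a depth of 80647185 to 104273669 counts bounds counting error only.

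Of 24467 identifiers, 24437 matched a symbol in RefSeq's GRCm38.p6 gene table, and the rest, with 0.723% to 1.93% of the counts, remained in the library sizes. Comparisons used edgeR 4.0.16 (R 4.3.3), with its robust quasi-likelihood test on all 16 libraries with the group as the term, after filterByExpr (15963 genes left) and TMM scaling, with calls at a Benjamini-Hochberg adjusted p under 0.05. It was tested on simulated data. The SE of a log2 fold change is its size divided by the square root of the F statistic. P-values measure only the spread between these 4 libraries per group. Between libraries of 1 group the chi-square per degree of freedom was at least 97.96, so no library was a copy of another, and 0 columns were left out. Exon lengths and transcript windows came from a GENCODE annotation of GRCm38.

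The genes and lists were chosen with earlier results of these data known. Named genes are the 10 members, up to 3 called genes by smallest p from each related list and comparison (or, with none called, the 2 with the smallest p in GFP vs DN), the 8 genes most like the mean z score of the members and the 3 most like Hspa1a, among tested genes with a mean of at least 10 CPM. One gene that this rule names is not reported here. The library numbers were examined as pairs. The deviations of same-numbered libraries from their group means correlated with r of 0.092 to 0.608, above 0.1 in 23 of 24 pairs, and each of 16 libraries was most like one of its own number. The exception was number 4 in GFP vs mScarlet. In the other 5 comparisons the numbers were taken as pairs, but only in the alternative fit with the replicate block. The main fit had no term for the number in any comparison. Alternatives were RLE scaling, other filters, DESeq2 1.42.0, limma 3.58.1 (voom with quality weights), the replicate block, fits of 2 groups alone and libraries left out. Chosen after seeing the data were a fit without the robust option, Hspa1a and Hspa1b summed, and the test of library number.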

Additional observations from a re-analysis of the deposited data

Results flagged for a closer look

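Hspa8 in DP library 1 was at 1616 CPM, while the other 3 DP libraries lay between 1373 and 1406 CPM. Its gap to the next library was 0.861 of the range of the 4 DP libraries, over Dixon's 95% critical value for 4 values. Among 40 groups of 4 libraries examined (10 genes in 4 gates) it was the 1 such case, and chance gives about 1 in 20. Hspa8 was also the highest in library 1 in GFP and DN.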

How the results depend on the processing

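In the number of the 10 genes called, the alternatives gave these counts. In GFP vs DN (0 called) DESeq2 gave 2 and the replicate block gave 1, and leaving out 1 library gave 0 to 1. In DP vs DN (0) DESeq2 gave 1. In GFP vs mScarlet (1) DESeq2 and the replicate block each gave 2, and 0 were left in the fit of the 2 groups alone, without GFP libraries 1 and 4 and with Hspa1a and Hspa1b summed, with 0 to 1 when 1 library was left out. In DP vs GFP (0) RLE scaling, the filter of 1 CPM in 4 libraries, DESeq2 and the replicate block each gave 1, with 0 to 1 when 1 library was left out. In the GFP-positive contrast (0) DESeq2 gave 2 and the replicate block 1, with 0 to 1 when 1 library was left out. In the mScarlet-positive contrast (1) limma voom, the fit without GFP libraries 1 and 4 and the summed pair each gave 0, with 0 to 2 when 1 library was left out. The cause of these moves was not tested. In GFP vs mScarlet, where the same-numbered pairs correlated with r of 0.168, 0.108, 0.186 and 0.092, the last of them under the 0.1 asked for, the replicate block gave Hspa1a 2.62 (SE 0.34, edgeR adjusted p = 0.00165) and Hspa1b 0.89 (SE 0.25, edgeR adjusted p = 0.0447), and gave 1190 calls over all genes against 245 without it. It gave 2297 calls against 1393 in the mScarlet-positive contrast and 80 against 0 in the GFP-positive one, where Hspa1a passed (1.65 on the log2 scale, SE 0.24, edgeR adjusted p = 0.0108), and it changed no other call of the 10 genes beyond those given beside them. Over all genes the DESeq2 counts were 246 in GFP vs DN, 808 in mScarlet vs DN, 1020 in DP vs DN, 1523 in GFP vs mScarlet, 1005 in DP vs GFP, 50 in DP vs mScarlet, 323 in the GFP-positive and 2338 in the mScarlet-positive contrast, and limma voom gave 2, 765, 924, 113, 31, 0, 1 and 1455. Leaving out 1 library gave 17 (DN library 1) to 362 (GFP library 1) genes in mScarlet vs DN, 105 (DN library 1) to 532 (GFP library 1) in DP vs DN, 6 (mScarlet library 1) to 524 (GFP library 3) in GFP vs mScarlet, 1 (GFP library 1 or DP library 1, 2 or 3) to 297 (GFP library 3) in DP vs GFP, and 861 (DN library 1) to 1640 (GFP library 3) in the mScarlet-positive contrast. For size and direction, only fold changes of the 10 genes larger than their SE in the main fit were followed. That left out every comparison of Hspd1 and Hsp90aa1, such as Hspd1 at 0.002 in GFP vs mScarlet. Among those followed, Hspb1 was the gene whose log2 fold change turned. With 1 library left out it ranged from -0.04 to 0.86 in GFP vs DN and from 0.00 to 0.90 in GFP vs mScarlet, both minima without GFP library 4. Over the alternatives Hspa1a was called in 22 of 26 fits in GFP vs mScarlet (log2 fold change 1.22 to 3.08, adjusted p 6.43e-10 to 0.108), 3 of 26 in GFP vs DN (1.43 to 2.81), 6 of 26 in DP vs GFP (-2.08 to -0.74) and 11 of 25 in the mScarlet-positive contrast (-1.18 to -0.34), with the same sign in all. In each comparison 1 of these fits was of Hspa1a and Hspa1b summed, which was not called. The limits 1.22, 1.43 and -0.34 came from that sum and not from Hspa1a alone. The fold changes larger than their SE in the main fit gave 1020 values under the alternatives. Of these, 981 kept direction and side of the threshold, 19 came to pass it, 18 missed it and 2 turned. Smaller fold changes, which could turn more easily, are not in these counts.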
